A study of Mus musculus with 8 samples.

Results

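Replication-dependent histone genes were followed in OT-I T cells from mouse pancreatic tumours. Members were all gene expression features whose name starts with Hist1h, Hist2h, Hist3h or Hist4h and that had a unique molecular identifier (UMI) count in at least 10 cells with a single called guide. Of 67 features with such a name, among 32285 genes in the deposited matrices, 62 met this rule. They comprised 5 linker histone H1 genes, 16 H2A, 16 H2B, 12 H3 and 13 H4 genes. The features just inside the limit were Hist2h3c2, detected in 28 cells, Hist1h2ah in 31 and Hist2h3c1 in 41. The features outside it were Hist1h1t, detected in 7 cells, Hist1h2aa and Hist2h2aa2, each in 3 cells, and Hist1h2bq and Hist1h2ba, which had no count.

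CD8+ T cells of the OT-I line carry a transgenic receptor for ovalbumin. Here they came from Cas9 knockin animals on a Rag2 background, had received lentiviral guides from a CRISPR library of metabolic genes, and were transferred into the vein of mice bearing an orthotopic KPC_OVA tumour, a pancreatic ductal adenocarcinoma (PDAC) line that expresses ovalbumin. Anti-PD-1 or control IgG treatment began on the day of transfer, and CD90.1+ OT-I cells, in which CD90.1 marks the library vector, were sorted from the primary tumour on day 7. Each of 4 libraries was its own 10x Genomics 3′ channel, 3 from anti-PD-1 animals (replicates 1 to 3) and 1 from IgG animals. All groups shared Cas9, the library and the tumour line, and no library held unedited OT-I cells without a vector. The study gives the animals of each treatment over its independent experiments but not how they were divided over the libraries, so p-values measure only the spread between libraries, which may be technical. The titles of replicates 1 and 2 share a name and differ in a suffix, whereas replicate 3 and IgG carry names of their own.

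Histone proteins package DNA, and a cell that copies its genome needs a matching supply of new histones. Most of the genes that supply them sit in clusters, have no introns and are read mainly during DNA replication, and their messages end in a stem-loop that is bound by the protein Slbp in place of a poly(A) tail. The messages are degraded quickly once replication stops. Some members can also give polyadenylated messages, which persist in resting or differentiated cells. The kit primes on poly(A), so that the values below count the molecules that this priming captured, and a low value need not mean a low level of the stem-loop message.

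After filtering, 23059 single-guide cells were retained, 11495 in IgG and 2535, 2597 and 6432 in anti-PD-1 replicates 1, 2 and 3. Median depth was 6329 UMIs per cell in IgG and 16829, 16325 and 12084 in the replicates, and summed gene UMIs of a library ranged from 48182760 to 88543446. Levels are given as CPM, the UMI counts of summed cells scaled to their total gene UMIs, and errors after mean CPM are SD over libraries. A molecule gives about 1 UMI whatever its length, so no correction for length was made. Of any pair of libraries, between 3 and 18 cell barcodes were shared. The 6 T cell markers checked summed to 4767 to 5310 CPM per library. The 5 B or plasma cell markers summed to between 52.3 and 190 CPM, and reached 493 CPM in 1 group of cycling cells of replicate 3. Over all cells of that library Igkc stood at 127 CPM and Jchain at 11.7 CPM. Ighm stood at 62.5 CPM in IgG and at 54.5, 47.05 and 51.0 CPM in replicates 1, 2 and 3. Ms4a1 and Cd79a were at or below 0.183 CPM in all libraries. Counts of members in the 5 comparisons of states are therefore also given without cells that held at least 10 UMIs of other cell types' markers.

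All 62 members were found in the GENCODE M21 annotation of GRCm38. Of these, 50 lie on chromosome 13 between positions 21715763 and 23764406, 9 on chromosome 3 between 96219865 and 96270132, 2 on chromosome 11 and 1 on chromosome 6. The annotated transcripts of 42 members hold the 16-base histone stem-loop. It is shown for those of the 7 highest members in which it was found, for Hist3h2a, which changed least between states, and for a rarer form in Hist1h4b, with the stem-loop in capitals and up to 5 bases on each side:
Hist1h2ap: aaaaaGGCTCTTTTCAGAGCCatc
Hist1h2ae: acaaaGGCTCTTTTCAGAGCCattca
Hist1h1e: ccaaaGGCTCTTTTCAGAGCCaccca
Hist3h2a: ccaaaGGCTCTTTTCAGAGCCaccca
Hist1h3c: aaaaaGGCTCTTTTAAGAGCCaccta
Hist2h2ac: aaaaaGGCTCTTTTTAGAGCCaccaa
Hist1h4d: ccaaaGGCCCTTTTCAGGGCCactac
Hist1h4b: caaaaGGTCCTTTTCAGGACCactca
The first form was present in 25 members, and the form of Hist1h4d in 7. The sequences come from the GENCODE transcripts. In 20 members the model ended within 60 bases after the stem-loop, in 22 it ran further, in 9 it held the coding sequence alone and in 11 no stem-loop was found. A poly(A) signal lay within the last 50 bases of an annotated transcript in 15 members. Some histone genes of a class are near-copies of each other: 25 members shared over 50% of their 90-base windows with another gene, and 4 (Hist1h1a, Hist1h1b, Hist2h2be and Hist2h4) shared none. Levels of single members that share many windows are uncertain for this reason. Among the 10 highest members this touches Hist1h2ap most, with 92.4% of its windows shared.

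Promoters, mostly upstream of the gene's start and reaching 50 bases past it, were taken from RefSeq on GRCm38.p6 and were found for 57 members. The motif CCAAT, counted on either strand like all motifs here, lay in 48 of them (84.2%, against 37.4% of 32851 promoters), in every H1, H2A, H2B and H3 promoter and in 3 of 12 H4 promoters. TATAAA was found in 33 (57.9%, against 13.6%). ATTTGCAT, the octamer bound by Oct factors, was found in 11 (19.3%, against 1.74%) and TTTNGCGC in 13 (22.8%, against 1.38%), both in H2A and H2B promoters alone. Promoters of some neighbouring H2A and H2B genes on opposite strands overlap, as those of Hist1h2ah and Hist1h2bk do. The same sites were then counted for both members, so the shares of members are not shares of separate stretches. AAACACA was found in 4 of 5 H1 promoters and in 6 of all 57 (10.5%, against 7.18%). No motif contains another, and a match is no more than a match of letters. Promoters are shown of the member with the highest mean level, of the member with the largest change between states and of the member that changed least, with all motif matches in capitals:
Hist1h1b, chr13:21780576-21780875, minus strand: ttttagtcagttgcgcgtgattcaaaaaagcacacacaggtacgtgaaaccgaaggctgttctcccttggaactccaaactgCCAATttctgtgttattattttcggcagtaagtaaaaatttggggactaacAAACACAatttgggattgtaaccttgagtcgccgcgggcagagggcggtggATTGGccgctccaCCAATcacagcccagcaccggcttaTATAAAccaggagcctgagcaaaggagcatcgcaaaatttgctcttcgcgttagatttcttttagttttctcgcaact
Hist1h2af, chr13:23533625-23533924, plus strand: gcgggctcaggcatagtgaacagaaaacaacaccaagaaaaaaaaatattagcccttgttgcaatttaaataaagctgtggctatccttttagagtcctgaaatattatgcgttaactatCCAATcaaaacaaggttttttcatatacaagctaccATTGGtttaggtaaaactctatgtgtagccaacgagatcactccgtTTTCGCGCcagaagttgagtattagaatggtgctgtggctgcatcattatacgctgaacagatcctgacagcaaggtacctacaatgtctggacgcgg
Hist3h2a, chr11:58954435-58954734, plus strand: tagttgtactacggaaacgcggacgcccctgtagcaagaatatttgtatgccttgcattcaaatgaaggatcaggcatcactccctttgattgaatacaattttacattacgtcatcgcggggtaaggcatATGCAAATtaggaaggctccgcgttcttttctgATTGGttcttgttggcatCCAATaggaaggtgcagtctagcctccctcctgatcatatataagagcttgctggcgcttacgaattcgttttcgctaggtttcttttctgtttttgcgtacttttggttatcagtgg

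A few members held most of the captured signal. Hist1h1b, a linker histone, held 22.7% of all member UMIs, the 3 highest members 50.2%, the 5 highest 66.7% and the 10 highest 79.9%, as shares of the mean CPM over libraries. Hist1h1b (chr13:21779883-21780625) stood at 798 CPM in IgG, 208 in anti-PD-1 replicate 1, 249 in replicate 2 and 699.5 in replicate 3. Hist1h2ap, a core histone H2A gene (chr13:21833026-21833507), stood at 102 CPM in IgG and 589, 558 and 123 CPM in replicates 1, 2 and 3. The libraries therefore fell into the same pairs for both genes, replicates 1 and 2 against replicate 3 and IgG, but in opposite directions. Hist1h2ae, another H2A gene (chr13:23570517-23571220), was alike in all 4, at 226 CPM in IgG and 249, 268 and 259.8 CPM in the replicates. The linker histone Hist1h1e (chr13:23620629-23622558) stood at 365 CPM in IgG and 123, 129.8 and 318 CPM in the replicates. Hist1h4d (chr13:23581598-23582735), the highest H4 gene, stood at 181 CPM in IgG and 40.8, 43.7 and 221 CPM in the replicates. Both again split by the same pairs, with no overlap.

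The other members among the 10 highest were lower. Hist1h3c (chr13:23744973-23745602), the highest H3 gene, had a mean of 74.9 ± 33.0 CPM (n = 4). Hist2h2ac, an H2A gene outside the large cluster (chr3:96220361-96220880), had 69.1 ± 47.6 CPM. Hist1h1c (chr13:23738808-23740367), a linker histone, had 59.2 ± 14.6 CPM. Hist1h1d, also a linker histone (chr13:23553262-23560686), had 46.4 ± 22.3 CPM, and Hist1h2bj (chr13:22043214-22043676), the highest H2B gene, had 36.9 ± 8.15 CPM. Neighbours in this order from Hist1h3c to Hist1h2bj differed by less than the larger of their SDs over libraries. The other 52 members had means below that of Hist1h2bj.

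**Figure D1:**
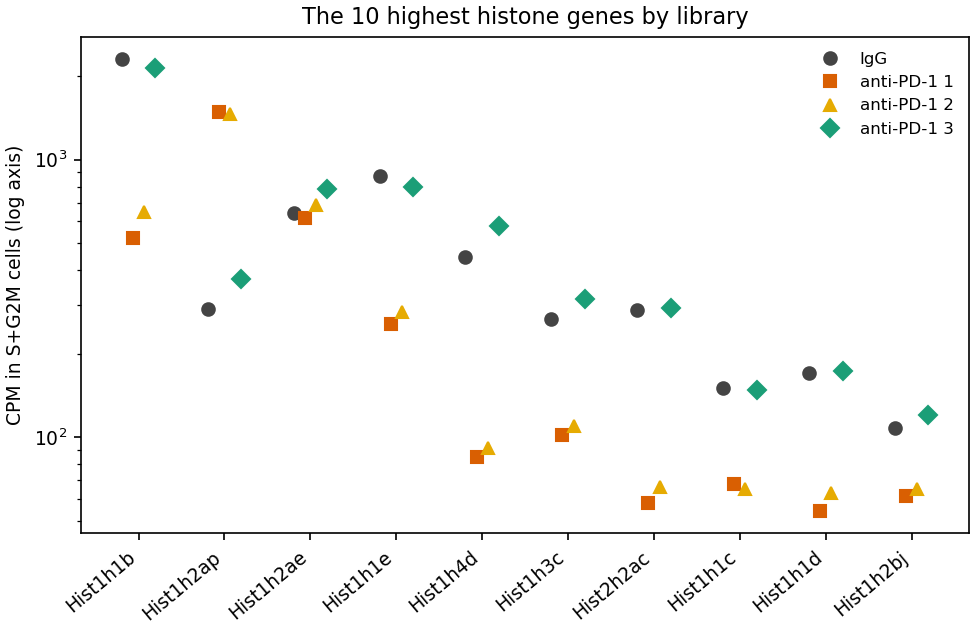
CPM in S+G2M cells (vertical log axis) of the 10 highest histone genes by mean level, 1 point per library, with colours and shapes for IgG and anti-PD-1 replicates 1 to 3. Hist1h1b reached 2297 CPM in IgG and 520.2 in replicate 1, Hist1h2ap 291 in IgG and 1490.1 in replicate 1, and Hist1h2ae lay between 617 and 782 CPM in all libraries.

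To place members in the cell cycle, each cell was scored for an S phase and a G2/M phase gene list, neither of which holds a histone gene. Cells were called low when neither score was above 0, and S-only, S+G2M or G2M-only by which scores were. Low cells made up 51.4% to 58.3% of a library, S-only cells 14.7% to 17.5%, S+G2M cells 20.8% to 25.3% and G2M-only cells 6.17% to 9.13%. Histone messages were concentrated in S+G2M cells of every library. In IgG, members summed to 342 CPM in low cells, 649.5 in S-only, 6866 in S+G2M and 2523 in G2M-only cells. In replicates 1 and 2 the sums were 236 and 213 CPM in low cells and 3923 and 4179.7 CPM in S+G2M cells, and in replicate 3 they were 338 and 7330.1 CPM. Levels in S+G2M over low cells thus differed 20.1-fold in IgG and 16.6-fold, 19.6-fold and 21.7-fold in the replicates. S-only cells stood only 1.59-fold to 1.94-fold above low cells, and G2M-only cells 7.39-fold to 10.8-fold. By mean level, 57 members were highest in S+G2M cells and 5 (Hist2h2be, Hist2h3c2, Hist3h2ba, Hist3h2a and Hist1h2bc) in G2M-only cells.

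At equal depth the order of low and S+G2M cells was the same. With each cell thinned to 2000 UMIs and scored again, at least 1 member UMI was found in 30.6% to 47.0% of low cells and 90.6% to 94.0% of S+G2M cells, and in 46.5% to 57.8% of S-only and 78.4% to 84.0% of G2M-only cells. The range of low cells did not meet that of any cycling state except S-only. Unthinned, the share was 76.1% to 90.7% in low and 99.5% to 100% in S+G2M cells. Low cells are the nearest to a cell type that should lack these messages, and free RNA in the droplets was not measured, so the share in low cells was not read as expression.

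Ordering cells by the angle between the scores gave a profile along the cycle. In 12 bins of 22.5°, of which 1 to 4 hold S-only cells, 5 to 8 S+G2M cells and 9 to 12 G2M-only cells, members made up 0.0406% of all UMIs in bin 1 of IgG, 0.397% in bin 5, 0.863% in bin 7 and 0.311% in bin 9. Replicate 3 followed the same course with 0.973% in bin 7, and replicate 2 peaked there at 0.508%. Replicate 1 had its highest value in bin 8, at 0.460%, next to 0.452% in bin 7. Bins held 20 to 801 cells, the fewest in the last G2M-only bins. In all 4 libraries the share rose from bin 4 to bin 5 to bin 6 and peaked while both scores were above 0.

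**Figure D2:**
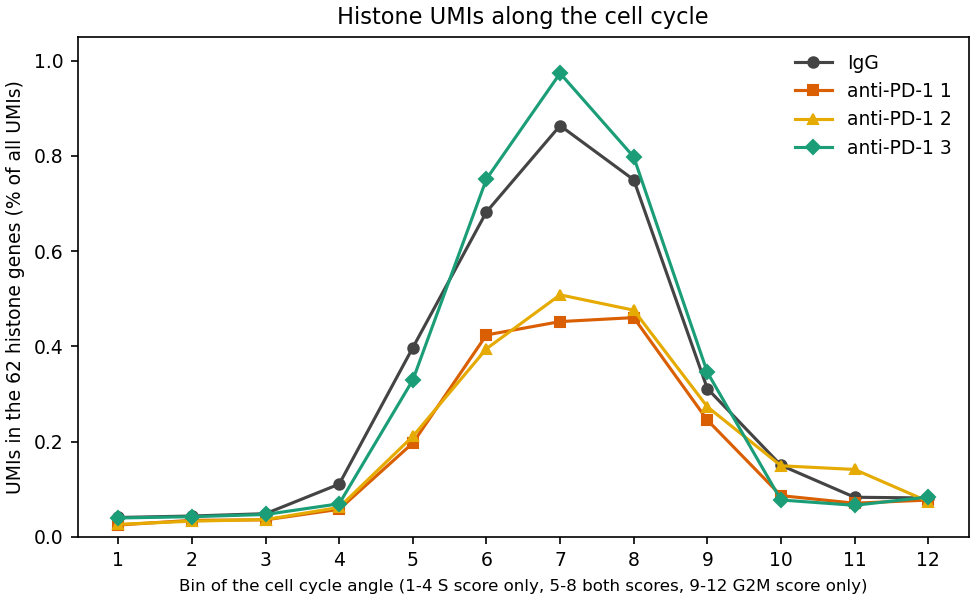
Share of all UMIs in the 62 histone genes (vertical axis, %) in 12 bins of the angle of the S and G2M scores (horizontal axis), 1 line per library. All lines lie at or below 0.111% in bins 1 to 4 and peak in bin 7 or 8, at 0.863% in IgG, 0.973% in anti-PD-1 replicate 3 and 0.460% and 0.508% in replicates 1 and 2.

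Members were then tested between states with edgeR's quasi-likelihood test on counts summed per library and state, with the library as a block and Benjamini-Hochberg adjustment over all 11647 genes tested. Of the 62 members, 58 passed the filter on low counts. Against low cells, 57 of the 58 rose in S+G2M cells and none fell, where 63% of all genes changed (27.9% higher, 35.1% lower). The median log2 fold change was 3.79 over the members tested and −0.06 over all genes. A member could pass the filter through S+G2M cells alone, so these counts describe the members tested and not all 62. The remaining member was Hist3h2a.

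The largest changes were those of the H2A genes Hist1h2af and Hist1h2ap, the linker histones Hist1h1b and Hist1h1a, the H3 gene Hist1h3b and the H2A gene Hist1h2ab. Hist1h2af stood at 0.5 CPM in low and 68.7 CPM in S+G2M cells of IgG, and at 0.4 and 10.6, 0.3 and 13.8, and 0.6 and 91.9 CPM in the 3 replicates. Its log2 fold change was 6.83 ± 0.18 (SE, adjusted p = 2.0e-18). Low and S+G2M levels did not overlap. Hist1h2ap rose from 3.4 to 291 CPM in IgG and from 23.6 to 1490.1, 17.9 to 1466 and 4.0 to 372 CPM in the replicates, a log2 fold change of 6.31 ± 0.10 (adjusted p = 6.0e-22). Hist1h1b rose from 25.6 to 2297 CPM in IgG and from 12.7 to 520.2, 11.3 to 649 and 21.4 to 2133 CPM in the replicates, by 6.22 ± 0.15. All 3 rose in each library despite their unequal levels between libraries. For Hist1h3b the log2 fold change was 6.07 ± 0.14, for Hist1h2ab 5.94 ± 0.13 and for Hist1h1a 5.93 ± 0.15.

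The smallest changes came from genes on other chromosomes and 1 gene of the main cluster. Hist3h2a, an H2A gene on chromosome 11 (chr11:58954685-58956830), stood at 2.3 CPM in low and 3.2 CPM in S+G2M cells of IgG, and at 4.0 and 3.8, 3.3 and 2.8, and 2.7 and 2.4 CPM in the replicates. The log2 fold change was 0.02 ± 0.13 (adjusted p = 0.91), and 3 of 4 libraries were lower in S+G2M cells. Hist2h2be on chromosome 3 (chr3:96221119-96223738) and an H2B gene, changed by 0.61 ± 0.24 (adjusted p = 0.035), a call that was lost in DESeq2 (adjusted p = 0.10) and without IgG (0.29, adjusted p = 0.40), anti-PD-1 replicate 2 (0.61, adjusted p = 0.066) or replicate 3 (0.60, adjusted p = 0.083). Hist1h2bc (chr13:23684199-23692908), an H2B gene with a spliced transcript, changed by 1.003 ± 0.10, and the H2B gene Hist3h2ba, which shares the chromosome 11 locus with Hist3h2a (chr11:58948920-58949533), by 1.24 ± 0.14. Of these genes Hist3h2a, Hist2h2be and Hist3h2ba have a poly(A) signal near an annotated end. Hist1h2bc has none, and the 4 members tested with a multi-exon transcript, Hist1h2bc included, had a median of 3.76 against 3.79 for the other 54.

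Across the members tested, those without a poly(A) signal near an annotated end had a median log2 fold change of 4.05 (44 members, range 1.003 to 6.83), and those with one had 2.80 (14 members, range 0.02 to 5.84). Of the 10 members with the smallest change, 7 had such a signal, against 7 of the other 48. Class medians were 3.79 for H1, 4.38 for H2A, 4.31 for H2B, 3.93 for H3 and 3.05 for H4. Members on chromosome 13 had a median of 4.01 (48 members) and those on other chromosomes 2.02 (10 members). Both splits are descriptions of overlapping ranges, and members of a class share sequence.

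**Figure D3:**
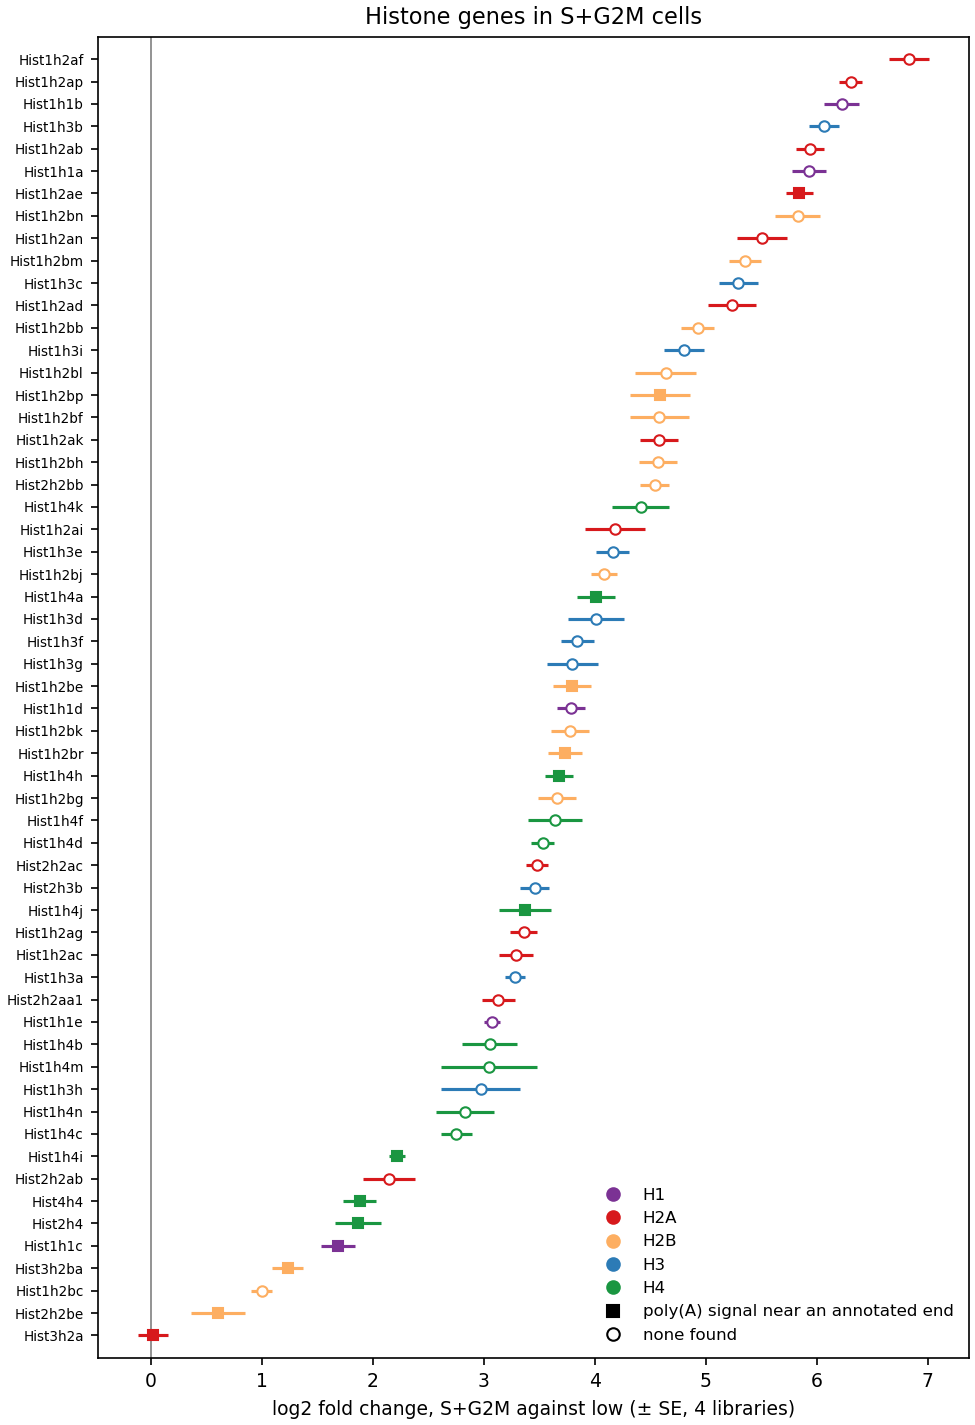
Log2 fold change of S+G2M against low cells with its SE (horizontal axis) for the 58 histone genes tested in 4 libraries, sorted, with colour for class and filled squares for genes with a poly(A) signal near an annotated end. Values run from 0.02 in Hist3h2a to 6.83 in Hist1h2af, and 7 of the lowest 10 are filled squares.

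S-only cells showed a smaller and uneven change. Here 37 of 58 members rose against low cells and 2 fell, where 47.7% of all genes changed (23% higher, 24.8% lower), and the median member changed by 1.02. Hist1h3a, an H3 gene at the end of the main cluster (chr13:23761853-23762386), changed most. It stood at 2.5 CPM in low and 13.8 CPM in S-only cells of IgG and at 3.8 and 18.3, 2.9 and 20.9, and 2.8 and 13.6 CPM in the replicates, a log2 fold change of 2.43 ± 0.11 (adjusted p = 5.2e-14). The values did not overlap, and the change from S-only to S+G2M cells was smaller, at 0.85 ± 0.08. Hist3h2a fell by 1.41 on the log2 scale (SE 0.19, adjusted p = 4.1e-06), and it did not pass the filter on low counts after thinning, so that it was not tested there. Hist3h2ba fell by 0.57 (SE 0.20, adjusted p = 0.026). The call of Hist3h2ba was lost without IgG (−0.54, adjusted p = 0.093) or anti-PD-1 replicate 2 (−0.48, adjusted p = 0.087) and after thinning, and with 3 cell cycle phases in place of 4 states its change was 0.06.

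G2M-only cells kept much of the signal. All 58 members tested rose against low cells, where 38.7% of genes changed (19.2% higher, 19.6% lower), with a median of 2.95. Against G2M-only cells, 48 members were higher in S+G2M cells and 2 lower, where 37.3% of genes changed (18.8% higher, 18.5% lower), and the median was 1.049. The 2 that were lower in S+G2M cells were Hist1h2bc, by −1.03 ± 0.10 (adjusted p = 5.8e-08), and Hist3h2a, by −0.62 ± 0.17 (adjusted p = 0.0079). The call of Hist3h2a was lost without anti-PD-1 replicate 3 (−0.54, adjusted p = 0.061), in replicate 3 and IgG alone (−0.54, adjusted p = 0.12), in replicates 1 and 2 alone (−0.69, adjusted p = 0.051) and without the library as a block (−0.63, adjusted p = 0.062), and the gene was not tested after thinning. Against S-only cells all 58 were higher in S+G2M cells, where 33% of genes changed (17.4% higher, 15.6% lower), with a median of 3.03. Hist1h1a, the linker histone at the very end of the main cluster (chr13:23763666-23764406), differed most between S+G2M and G2M-only cells, by 2.76 ± 0.15.

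The count for S+G2M against low cells was close in both pairs of libraries. Replicate 3 and IgG alone gave 58 members higher in S+G2M than in low cells of 59 tested (28.8% of genes), and replicates 1 and 2 alone gave 55 of 57 (24.4% of genes). Without cells that held markers of other cell types, 57 of 58 were higher (28% of genes). In the same cells 37 members were higher (23.1% of genes) and 2 lower (25%) in S-only than in low cells, and all 58 were higher in G2M-only than in low cells (19.2%) and in S+G2M than in S-only cells (17.4%). Against G2M-only cells 48 were higher (18.7%) and 2 lower (18.2%) in S+G2M cells. Without the library as a block, the count of members higher in S-only cells was 20 (12.1% of genes) and that of members higher in S+G2M than in G2M-only cells was 18 (9.52% of genes).

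The order in which members peaked along the cycle differed little, with a few exceptions. Of the 62 members, 57 had their highest bin at 6, 7 or 8, of which 37 peaked in bin 7, and 35 members had a mean of at least 5 CPM. Among those 35, the median level in bin 3 was 7.51% of the highest bin, and 3 members, Hist1h3a, Hist1h4i and Hist3h2ba, exceeded 25%. Hist1h3a was at 48.0% in bin 3 and 68.1% in bin 4, whereas its neighbour Hist1h1a was at 3.11% and 9.28%, and Hist1h1b at 2.53% and 8.61%. By mean over libraries, both Hist1h3a and Hist1h1a then had their highest bin at 6, ahead of most members. By library, Hist1h3a peaked in bin 7 in replicate 2 and in bin 6 in the others. Hist1h1a peaked in bin 6 in IgG and replicate 1 and in bin 7 in replicates 2 and 3. At the other end, Hist1h2bc rose to its highest mean in bin 12, at 52.2 CPM against 15.7 CPM in bin 7. Hist3h2a peaked in bin 9 at 5.62 CPM, and Hist2h2be in bin 11 at 2.10 CPM. These late bins held few cells, and the bin of the peak of Hist1h2bc varied between 10 and 12 over libraries.

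**Figure D4:**
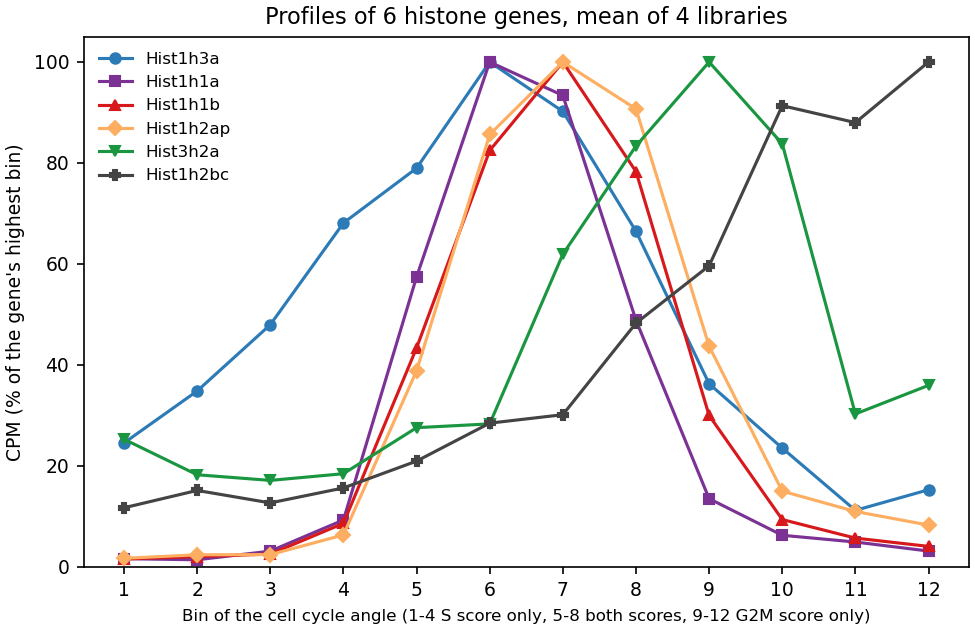
Mean CPM of 4 libraries as a percentage of the gene's highest bin (vertical axis) for 6 histone genes in the 12 angle bins (horizontal axis). Hist1h3a is at 48.0% in bin 3, where Hist1h1a, Hist1h1b and Hist1h2ap are between 2.42% and 3.11%, and Hist1h2bc is at 91.3% in bin 10, where Hist1h1b is at 9.36%.

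Cells of S+G2M state that had more of one class had more of the others. Pearson's r between classes, over cells and with all classes on the log-normalised scale, was highest for H1 and H2A in every library, at 0.846 in IgG (2542 cells), 0.830 and 0.804 in replicates 1 and 2 (642 and 596 cells) and 0.904 in replicate 3 (1339 cells). The other class pairs ranged from 0.500 to 0.864. Cells of a library share its depth and chemistry, so these values are a description.

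Genes that control histone supply were taken from a list of 60 regulators, of which 56 were tested. In S+G2M against low cells 43 rose and 8 fell, where 27.9% of all genes were higher and 35.1% lower, with a median log2 fold change of 0.52. Of those that act in transcription 12 of 14 rose and 1 fell, in 3′ end processing 10 of 13 rose and 2 fell, in message decay 4 of 8 rose and 3 fell, and among chaperones and assembly factors 17 of 21 rose and 2 fell. Cyclin A2 (Ccna2), a partner of Cdk2 in S phase, went from 2.86 ± 0.24 to 148 ± 8.72 CPM (n = 4), by 5.69 ± 0.08. The H3-H4 chaperone Asf1b changed by 4.52 ± 0.08 and the transcription factor E2f1 by 3.19 ± 0.07. Slbp, which binds the stem-loop, stood at 84.9 ± 3.63 CPM in low, 205 ± 6.64 in S-only, 253 ± 15.04 in S+G2M and 92.9 ± 7.92 in G2M-only cells. It was named outside the rule, after its values were seen, and changed by 1.27 ± 0.04 on the log2 scale between low and S-only cells. Those that fell with the smallest p were Tut7, a uridylyl transferase of decay, by 0.30, the import factor Ipo4, by 0.52, and the Oct coactivator Pou2af1, by 0.97.

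Replacement histone genes, most of which are read outside replication and give polyadenylated messages, had a lower median change. Of 11 listed, 9 were tested, and 8 rose in S+G2M against low cells and none fell, beside the same 27.9% and 35.1% of all genes. H2afz, which encodes H2A.Z, stood at 562 ± 32.4 CPM in low and 2125 ± 66.8 CPM in S+G2M cells, a log2 fold change of 1.93 ± 0.03. H2afx, which encodes H2A.X and gives a stem-loop message as well as a polyadenylated one, changed by 2.95 ± 0.07 and H2afv by 1.55 ± 0.05. H2afj, at −0.05 ± 0.03 (adjusted p = 0.16), was the member of this list that did not pass the test. The median of the list was 0.82, against 3.79 for the replication-dependent genes tested.

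The comparison of anti-PD-1 with IgG asked whether checkpoint treatment moved these genes. No member of 62 tested passed the threshold in sums over all cells, where 0 of 13810 genes (0%) did, by edgeR, in which the lone IgG library takes its spread from the other group. At an unadjusted p under 0.05 there were 3 members and 282 genes, and DESeq2 called 0 members and 5 genes. An exact permutation test of 3 libraries against 1 cannot go below 0.25. The median member changed by −0.26 on the log2 scale, with a range of −1.17 to 2.07. The smallest p-values of higher members were those of Hist1h3b, by 0.72 ± 0.28, Hist1h2ag, by 0.84 ± 0.32, and Hist1h2ai, by 0.55 ± 0.21, and of lower members those of Hist1h1c, by −0.45 ± 0.24, Hist1h1e, by −0.93 ± 0.53, and Hist1h1b, by −1.04 ± 0.65. All 6 had an adjusted p = 0.987 in edgeR. Within states no member passed either, with 52 members tested in low cells, 49 in S-only, 60 in S+G2M and 54 in G2M-only cells, where 0% of genes passed. By edgeR 0, 5, 3 and 1 of these members had an unadjusted p under 0.05, beside 180 of 12683, 348 of 11357, 358 of 12099 and 243 of 10524 genes. With DESeq2 the count of calls was 0 in each state. The difference between S+G2M and low cells did not differ by treatment for any of the 58 members tested at this threshold by edgeR, and 1, Hist3h2a, had an unadjusted p under 0.05, beside 303 of 11647 genes. Fewer cells with a message and less message per cell cannot be told apart in such sums.

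This outcome turned on 1 library. Without anti-PD-1 replicate 3, 41 of 60 members were called, where 24.9% of 13327 genes were (12.4% higher, 12.5% lower), 8 of the members higher and 33 lower in anti-PD-1. The spread in that fit is the spread between replicates 1 and 2 alone. Within states, 10 of 44 members were then called in low cells (8.62% of genes), 14 of 44 in S-only (12.3%), 39 of 59 in S+G2M (16.3%) and 22 of 54 in G2M-only cells (11.9%), and 12 of 57 for the difference between S+G2M and low cells (2.21%). Hist1h1b was then at −1.78 (adjusted p = 2.0e-48 in edgeR). In replicate 3 against IgG alone, with no test, it was at −0.19.

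Levels of members set replicates 1 and 2, whose titles share a name, apart from replicate 3 and IgG, whose titles do not pair them. In 25 of 62 members both replicates 1 and 2 lay over 2-fold below both replicate 3 and IgG, where 2.19% of 13810 genes did, and in 1 member, Hist1h2ap, both lay over 2-fold above (1.98% of genes). Replicate 3 differed over 2-fold from IgG in 1 member (2.85% of genes), Hist2h3c2, at 0.113 and 0.0487 CPM, and replicates 1 and 2 from each other in none (4.63% of genes). The median absolute log2 difference over members was 0.13 between replicates 1 and 2, 0.22 between replicate 3 and IgG, and 0.83 between replicate 1 and IgG, where the medians over all genes were 0.12, 0.12 and 0.23. Replicates 1 and 2 were kept as 2 libraries, each its own channel. Their chi-square over genes was 14.5 for each degree of freedom, with every UMI taken as an independent count. As UMIs of a cell are not independent, this value cannot tell a difference between libraries from the spread between cells. This way of grouping libraries was chosen after their values were seen and is a description with no test. Among genes that are no members, the T cell receptor gene Trac, named after its values were seen, stood at 1918 and 1769 CPM in replicates 1 and 2 and at 798 and 699.8 CPM in replicate 3 and IgG. Replicate 3 has the treatment of replicates 1 and 2, and its median absolute log2 difference over members was 0.76 from replicate 1 and 0.71 from replicate 2. The study's methods speak of integration over 2 batches without saying which libraries formed them, and a batch and a difference between animals cannot be told apart here.

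The split was also present within S+G2M cells. Shares of S+G2M cells were 22.1% in IgG, 20.8% in replicate 3 and 25.3% and 22.9% in replicates 1 and 2, and in S+G2M cells alone 25 members were again over 2-fold lower in replicates 1 and 2, 24 of them among the same 25, and 1 was higher (2.3% of genes lower, 1.92% higher). In low cells alone 6 members were lower and 1 higher (2.64% and 2.27% of genes). After thinning every cell to 2000 UMIs, 17 members were lower and 3 higher (3.68% and 2.14% of genes). Over all barcodes whatever their guide call, 23 were lower and 1 higher (2.17% and 2.28% of genes). By mean CPM, Hist1h2af was 5.41-fold and Hist2h2bb 5.36-fold lower in replicates 1 and 2 than in the other libraries, and Hist1h2ap was 5.11-fold higher.

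The members that were lower were spread unevenly over classes. They included 4 of 5 H1 genes, 4 of 16 H2A, 7 of 16 H2B, 3 of 12 H3 and 7 of 13 H4 genes. By annotated end they included 6 of the 9 members whose model is coding sequence alone, 9 of the 22 that run past the stem-loop, 5 of the 20 that end near it and 5 of the 11 with none found. They included 4 of the 15 members with a poly(A) signal near an end and 21 of the 47 without. Of the 25 members that share over 50% of their windows with another gene, 7 were lower and Hist1h2ap was higher, and of the other 37 members 18 were lower. Whether read length, mapping or annotation played a part was not tested.

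The makeup of the captured histone messages differed between libraries. In S+G2M cells, H1 genes made up 52.4% of member UMIs in IgG and 45.7% in replicate 3, against 23.4% and 26.0% in replicates 1 and 2. H2A genes made up 22.4% and 25.2% against 59.4% and 57.1%. In CPM, the higher H2A sum of replicates 1 and 2 lay in Hist1h2ap. Without it H2A genes summed to 1247 CPM in IgG and 1474 in replicate 3, against 839 and 922 in replicates 1 and 2. H4 genes made up 9.98% and 12.3% against 5.36% and 5.26%, and H2B and H3 genes split the same way without overlap. H2B genes made up 7.39% in IgG and 8.14% in replicate 3 against 5.55% and 5.36% in replicates 1 and 2, and H3 genes 7.81% and 8.63% against 6.34% and 6.29%. The totals behind these shares hold Hist1h2ap, so its higher level in replicates 1 and 2 lowers the shares of the other classes there. Shares with Hist1h2ap left out were not compared. In CPM, H2B genes summed to 508 and 597 against 218 and 224, and H3 genes to 536 and 632 against 249 and 263.

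**Figure D5:**
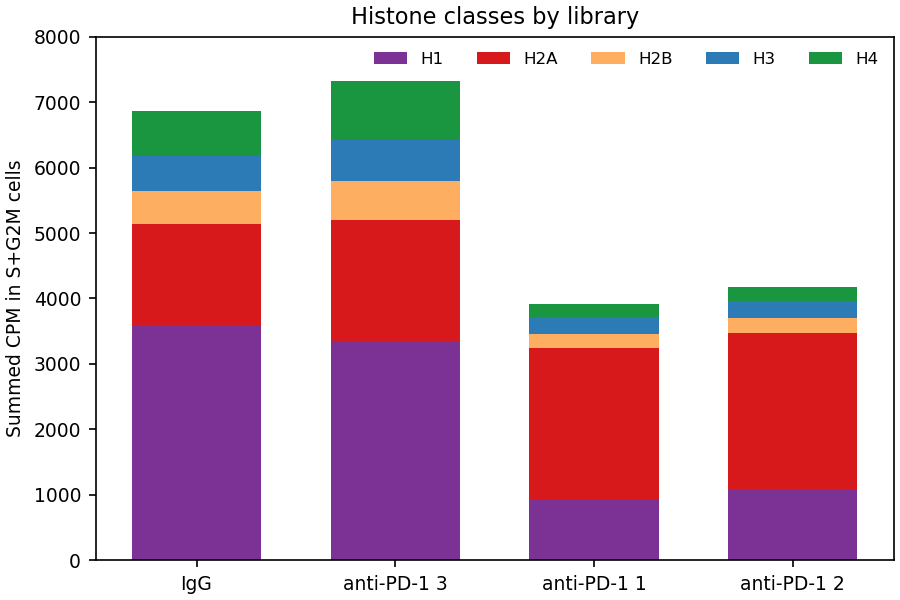
Summed CPM in S+G2M cells (vertical axis) of each histone class, stacked, in the 4 libraries. H1 genes sum to 3599.8 CPM in IgG, 3351 in anti-PD-1 replicate 3 and 917 and 1085 in replicates 1 and 2, and H2A genes to 1538, 1847, 2329 and 2388 CPM, of which Hist1h2ap holds 291, 372, 1490.1 and 1466 CPM.

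The last comparison set cells of each knockout against cells with nontargeting guides (sgNT) in the 3 anti-PD-1 libraries. With 1420 sgNT cells and 11 to 269 cells for each of 82 targets (median 116), 41 members were tested among 9419 genes. A library entered for a target with at least 10 cells, which gave 3 libraries for 70 targets, 2 for 4 targets and 1 for 8 targets, and a target with 1 library is assumed to vary like the others. None of the 3362 pairs of member and target passed edgeR's threshold, where 0.05% of all pairs of gene and target did. By edgeR 228 member pairs (6.78%) had an unadjusted p under 0.05, against 3.71% of all pairs. Each sum pools all states, and the share of S+G2M cells ran from 12% in sgCs to 41.2% in sgDpm2 cells, against 24.9% in sgNT cells. Members rise together in S+G2M cells, so the pairs are not independent, and a change at like state was not tested. The pair of smallest p was Hist1h1a in sgB3gnt2 cells. It stood at 21.2 CPM against 6.99 in sgNT cells of replicate 1, 4.78 against 9.82 in replicate 2 and 70.4 against 25.6 in replicate 3, from 18, 3 and 159 UMIs, a log2 fold change of 1.16 ± 0.31. Libraries thus disagreed in direction. A simulation on 1500 genes gave every gene the same assumed spread, which was not estimated from these sums. In it 11 of 100 simulated 2-fold changes and 60 of 100 simulated 4-fold changes were recovered for sgTgds, with 3 false calls. This is the target with the most cells. Under that assumed spread a 2-fold change would mostly have been missed, and the rate for the members themselves is not known.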

How the data were processed

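UMI counts per gene and cell were deposited by the authors, who ran Cell Ranger 3.1.0 on mm10; R 3.6.3 and Seurat are also named in the submitters' processing notes, and their annotation release is not stated. Cells with exactly 1 called guide were kept within 3 median absolute deviations of the library's median log10 UMI count and with at most 10% mitochondrial UMIs. Cell cycle scores were Seurat-style means against 100 control genes in 24 expression bins. Counts were summed over cells and fitted with edgeR 4.0.16 (R 4.3.3, TMM, filterByExpr, quasi-likelihood test, adjusted p under 0.05). The states of a library share its cells, so the library was a block in the state fit and this pairing comes from the design. DESeq2 1.42.0 was an alternative, but was not run for knockouts. Figures and summaries used Python 3.11.15. Genes named were the 10 highest members and the highest of each class, the 6 largest and 4 smallest changes between S+G2M and low cells with members called against the majority, the 3 smallest p-values in each direction for treatment and gene lists, and the knockout pairs of smallest p. Members and lists were chosen with earlier results of these data known. In data simulated from the real means, the state test recovered 94 of 100 genes changed 2-fold among 11647 and the treatment test 13 of 100 among 13810, or 71 of 100 changed 4-fold. Unchanged genes called were 18 in the state test and 10 in the treatment test. SEs of log2 fold changes come from the fitted test and reflect the spread between libraries. Doublets were not called beyond the single-guide and UMI limits.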

Additional observations from a re-analysis of the deposited data

Results flagged for a closer look

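A histone feature outside the members exceeded the limit of 3 counts set here for a count of 0. Hist1h1t, the testis linker histone, had a UMI in 7 cells over the 4 libraries, below the 10 cells required of a member. The level of free RNA was not measured, so these counts are not read as expression.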

How the results depend on the processing

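Counts of members higher in S+G2M, G2M-only or S+G2M over S-only cells stayed within 1.5 times under every setting run. Without the library as a block, which pairs the states of a library, S-only cells had 20 members higher and 1 lower than low cells, and S+G2M cells 18 higher and 1 lower than G2M-only cells. The 2 members lower in S-only cells became 1 with 3 phases, without cells near the cut or without cells of high UMI count, 4 with no filter on low counts and 0 after thinning, and 1 to 3 with single libraries left out. Under 3 phases Hist3h2ba turned to 0.064. The 2 members lower in S+G2M than in G2M-only cells became 1 after thinning and 1 in replicate 3 and IgG alone, a setting chosen after seeing the data, and 1 to 2 with single libraries left out. Leaving out single libraries gave 0 to 41 members called for treatment, 0 to 10 in low, 0 to 14 in S-only, 0 to 39 in S+G2M and 0 to 22 in G2M-only cells, and 0 to 12 for the difference between states, the highest always without anti-PD-1 replicate 3. The 25 members lower in replicates 1 and 2 became 6 in low cells, and the 1 that was higher became 3 after thinning, both settings chosen after seeing the data. The causes were not tested. No paired analysis was possible for treatment because the groups share fewer than 2 replicate numbers. DESeq2 and the fit without a filter on low counts were not run for knockouts. Few cells per target and 1 IgG library limit what the knockout and treatment tests could detect.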
